A study of Mus musculus with 6 samples.

Results

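Of the 54600 rows of the deposited liver expression table, 10 belong to nuclear receptor genes that sense lipids, hormones or foreign chemicals, and these 10 are described here. They were chosen by symbol, through the Ensembl identifier of each row, and each symbol had 1 row. They are Ppara (PPARα), Hnf4a (HNF4α), Nr1h4 (FXR), Nr1h3 (LXRα), Nr1i2 (PXR), Nr1i3 (CAR), Rxra (RXRα), Nr3c1 (the glucocorticoid receptor, GR), Esr1 (estrogen receptor α) and Thrb (thyroid hormone receptor β). The study asks what the hypoxia-inducible factor HIF-2α does in fatty liver disease. RNA was sequenced from liver tissue of mice kept on a high-fat diet for 16 weeks, with 3 libraries labelled WT and 3 labelled as a hepatocyte-specific HIF-2α knockout (KO). All 6 libraries share the diet and its duration, and no library on another diet was analysed. Strain, sex, age and the driver of the deletion are not given in the labels, which also do not say that each library came from its own animal. Values are TPM, transcript abundance per gene length with an equal sum in each library, so genes can be ranked against each other but the sequencing depth is unknown.

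Nuclear receptors are transcription factors that bind a small fat-soluble ligand in one domain and short DNA half-sites in another. PPARα, FXR, LXRα, PXR, CAR and thyroid hormone receptor β bind DNA mainly as heterodimers with RXRα, HNF4α as a homodimer, and GR and estrogen receptor α as steroid receptor homodimers. In liver, HNF4α maintains hepatocyte identity, PPARα drives fatty acid oxidation in fasting, LXRα drives sterol efflux and lipogenesis, FXR limits bile acid synthesis, and PXR and CAR induce drug-metabolizing enzymes.

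The stretch before the transcription start of 3 receptor genes with a single RefSeq start and no annotated exon in it is shown because 2 of the genes, Nr1i3 and Nr1h4, varied widely between libraries below while the third, Nr1i2, varied less. Each sequence covers the 250 bases before the start, read 5′ to 3′ on the strand of the gene, from RefSeq on GRCm38.p6, and capitals mark motif letters found by string search on both strands. The windows are chr1:171213720-171213969 on the plus strand for Nr1i3, chr10:89506659-89506908 on the minus strand for Nr1h4 and chr16:38294825-38295074 on the minus strand for Nr1i2. For Nr1h4, GENCODE M21 also annotates a transcript that starts farther upstream, so its window lies within the gene.
Nr1i3: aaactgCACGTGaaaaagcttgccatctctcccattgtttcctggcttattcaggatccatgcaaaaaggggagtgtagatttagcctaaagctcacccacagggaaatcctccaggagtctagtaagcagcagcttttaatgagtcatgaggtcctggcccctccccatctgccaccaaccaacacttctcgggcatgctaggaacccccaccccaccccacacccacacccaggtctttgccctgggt
Nr1h4: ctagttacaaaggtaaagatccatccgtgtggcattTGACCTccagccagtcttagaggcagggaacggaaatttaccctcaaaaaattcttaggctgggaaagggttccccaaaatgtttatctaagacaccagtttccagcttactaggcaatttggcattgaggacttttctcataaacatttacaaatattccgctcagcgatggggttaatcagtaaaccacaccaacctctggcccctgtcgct
Nr1i2: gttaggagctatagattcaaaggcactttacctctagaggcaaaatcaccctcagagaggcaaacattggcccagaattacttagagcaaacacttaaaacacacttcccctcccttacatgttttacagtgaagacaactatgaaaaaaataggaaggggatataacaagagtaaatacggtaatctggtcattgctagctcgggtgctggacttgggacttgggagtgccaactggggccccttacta
The letters searched were ACGTG and GCGTG (the hypoxia response element core), AGGTCA (the nuclear receptor half-site), CACGTG (the E-box, which holds ACGTG on each strand) and TTATGTAA (a D-box). The Nr1i3 window held 1 CACGTG, beginning 244 bases before the start. The Nr1h4 window held 1 AGGTCA, on the opposite strand 214 bases before the start, and the Nr1i2 window held none of the 5. Among 32851 RefSeq windows of the same length, 16.6% held ACGTG, 28.2% held GCGTG, 14.0% held AGGTCA, 6.02% held CACGTG and 0.819% held TTATGTAA. Windows of 9 of the 10 receptors were searched, and Nr3c1 was left out of the search. Of the windows not printed, that of Ppara held a GCGTG, 1 of Rxra held 2 AGGTCA, and Thrb held 2 GCGTG and an AGGTCA in 1 window and a CACGTG in another.

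The 6 most abundant of these receptors were also the 6 most abundant of the whole nuclear receptor family in these livers. Ranked by mean TPM over the 6 libraries among 49 family genes, Hnf4a was at 141 ± 15.0 TPM, Rxra at 102 ± 8.71, Nr1i3 at 61.6 ± 22.1, Ppara at 59.9 ± 19.8, Nr1h4 at 55.6 ± 18.7 and Nr1h3 at 55.0 ± 3.17 (SD, n = 6). The range of Hnf4a lay above that of Rxra, and that of Rxra above that of Nr1i3. The ranges of Nr1i3, Ppara, Nr1h4 and Nr1h3 overlapped from each neighbour to the next, so no order among those 4 could be given. Nr1i2 (22.4 ± 3.59 TPM) and Nr3c1 (19.5 ± 2.84) followed at ranks 10 and 11 and overlapped each other. Thrb (8.61 ± 1.04) was at rank 20 and Esr1 (4.36 ± 1.95) at rank 24. Together the 10 genes made up between 67.0% and 68.5% of the summed TPM of the family in every library.

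**Figure D1:**
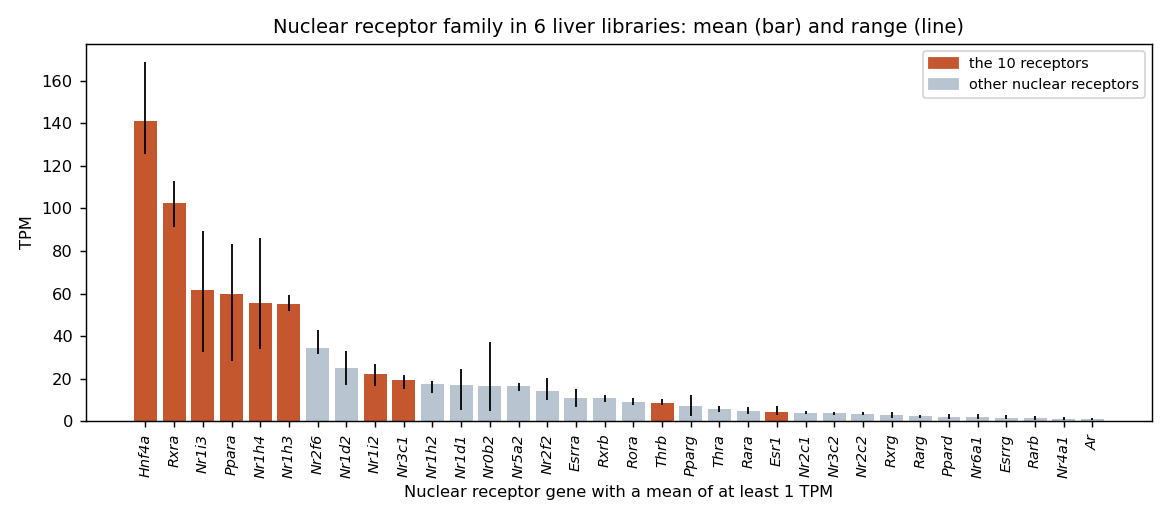
Mean TPM over 6 libraries (bar, linear axis) and range from the lowest to the highest library (line) for the nuclear receptor genes averaging 1 TPM or more, 1 of them not shown; the 10 receptors are in the darker colour. Hnf4a at 141 and Rxra at 102 TPM stand apart from the next 4, which have overlapping ranges.

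No receptor passed the test for a difference between the labels, and for the most variable ones the intervals below leave room for sizeable changes in either direction. Of the 10 genes, all 10 passed the filter on low values (at least 1 TPM in at least 3 libraries) and none passed the threshold of an adjusted p below 0.05 in limma, a linear model on log2(TPM + 1) fitted over all 11440 tested genes; 0.00874% of tested genes did, a single gene that is no receptor. None had an unadjusted p below 0.05, against 3.15% of all tested genes, and in none did the 3 KO values separate from the 3 WT values, against 9.08% of tested genes. Differences (KO minus WT) ran from -0.10 for Nr1h4 to +0.14 for Nr1i2, with 6 above 0 and 4 below and a median of +0.03, beside 74.5% above 0 and a median of +0.09 over all tested genes. Median-ratio scaling of the libraries moved the median of all genes by -0.11, and with it only Nr1i2 stayed above 0 and the median of the receptors was -0.08. With the replicate number as a block, again no receptor had an unadjusted p below 0.05, against 6.18% of all tested genes. The targeted gene Epas1, which encodes HIF-2α, was not lower under the KO label, at 23.8, 26.0 and 21.0 TPM under the WT label and 26.6, 35.1 and 29.4 under the KO label (limma adjusted p = 0.993). All 3 KO values lay above the WT values, with an unadjusted limma p of 0.050, or 0.0171 with the block. Epas1 thus gave no support to the KO label, but a value for the whole gene, without its exons, could not check that label. In the text below, "KO" is the label only. In liver tissue the Epas1 level includes cells that a hepatocyte deletion spares, and fewer cells of a type and less RNA per cell cannot be told apart.

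**Figure D2:**
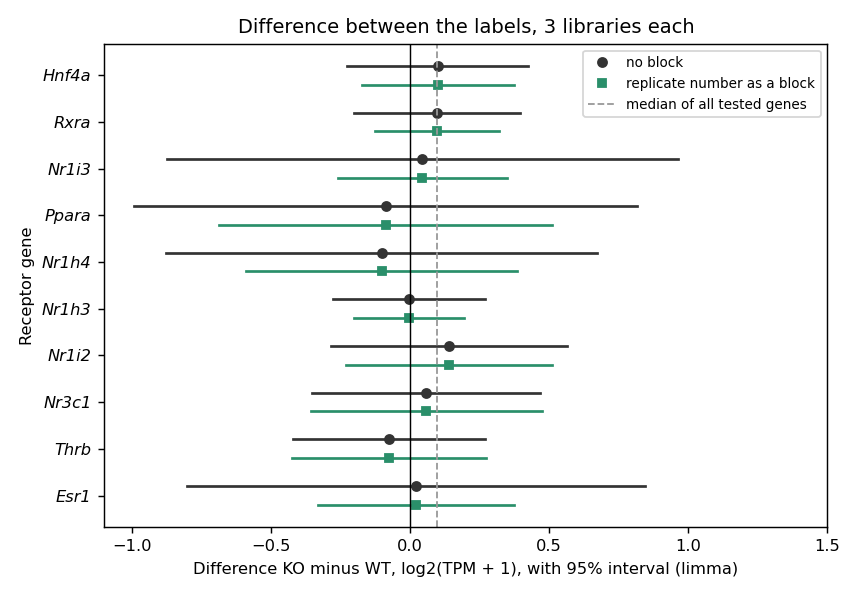
Difference between the labels (KO minus WT, log2(TPM + 1)) with its 95% limma interval for each receptor, without (dark circles) and with (green squares) the replicate number as a block, 3 libraries per label; the dashed line is the median of all tested genes at +0.09. Every interval includes 0, and those of Nr1i3, Ppara, Nr1h4 and Esr1 are the widest without the block.

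The receptors differed far more in how much they varied between libraries of one label. Nr1i3, encoding CAR, the constitutively active sensor that switches on Cyp2b enzymes (ENSMUSG00000005677; mm10 chromosome 1, 171213970 to 171220701), was at 61.3, 77.4 and 39.3 TPM in WT replicates 1, 2 and 3 and at 70.1, 89.4 and 32.5 TPM in KO replicates 1, 2 and 3. Under either label the library numbered 2 was highest and the library numbered 3 lowest, and the groups overlapped. The difference was +0.04 with a standard error of 0.39 (limma adjusted p = 0.994), and its 95% interval ran from -0.88 to +0.96. Of the sum of squares of its log2(TPM + 1) values, 95.3% lay between the replicate numbers and 0.180% between the labels. The numbers take 2 of the 5 degrees of freedom, and the median share between numbers over all tested genes was 53.5%. The gene overlaps Tomm40l on the opposite strand, and whether counting used strand is not stated in the labels, so reads of the 2 genes may not be told apart.

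Ppara, the receptor for fatty acids and fibrate drugs (MSTRG.1195|ENSMUSG00000022383; chromosome 15, 85734983 to 85802819), was at 72.6, 57.4 and 47.9 TPM under the WT label and 70.3, 83.1 and 28.1 TPM under the KO label, in the order of their numbers. Its highest and its lowest value both came from libraries labelled KO, 2.95-fold apart. Mean TPM was 59.3 ± 12.5 and 60.5 ± 28.8 TPM (SD, n = 3 each), with a difference of -0.09 and a standard error of 0.39 on the log2(TPM + 1) scale (limma adjusted p = 0.993). The TPM means and the log-scale difference thus had opposite signs. Without KO replicate 3 the difference was +0.38, and without KO replicate 2 it was -0.38.

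Nr1h4, the bile acid receptor FXR (MSTRG.390|ENSMUSG00000047638; chromosome 10, 89454234 to 89533585), was at 63.0, 61.7 and 43.0 TPM under the WT label and 45.8, 86.2 and 34.0 TPM under the KO label. The library numbered 3 was again the lowest under either label. The difference was -0.10 with a standard error of 0.33 (limma adjusted p = 0.993), and 75.7% of the sum of squares lay between the numbers. Esr1, the estrogen receptor (MSTRG.244|ENSMUSG00000019768; chromosome 10, 4611593 to 5005614), was the lowest of the 10, at 3.11, 7.21 and 2.84 TPM under the WT label and 3.83, 6.40 and 2.78 TPM under the KO label. Its values at number 2 exceeded the other 4, and 96.8% of its sum of squares lay between the numbers, with a label difference of +0.020 (limma adjusted p = 0.998). The within-label SD on the log2 scale was 0.631 for Nr1i3, 0.618 for Ppara, 0.552 for Esr1 and 0.522 for Nr1h4, against a median of 0.207 over all tested genes. These 4 receptors had their lowest value at number 3 under each label, as did 35.2% of all tested genes, a share near the 40.0% of the receptors.

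**Figure D3:**
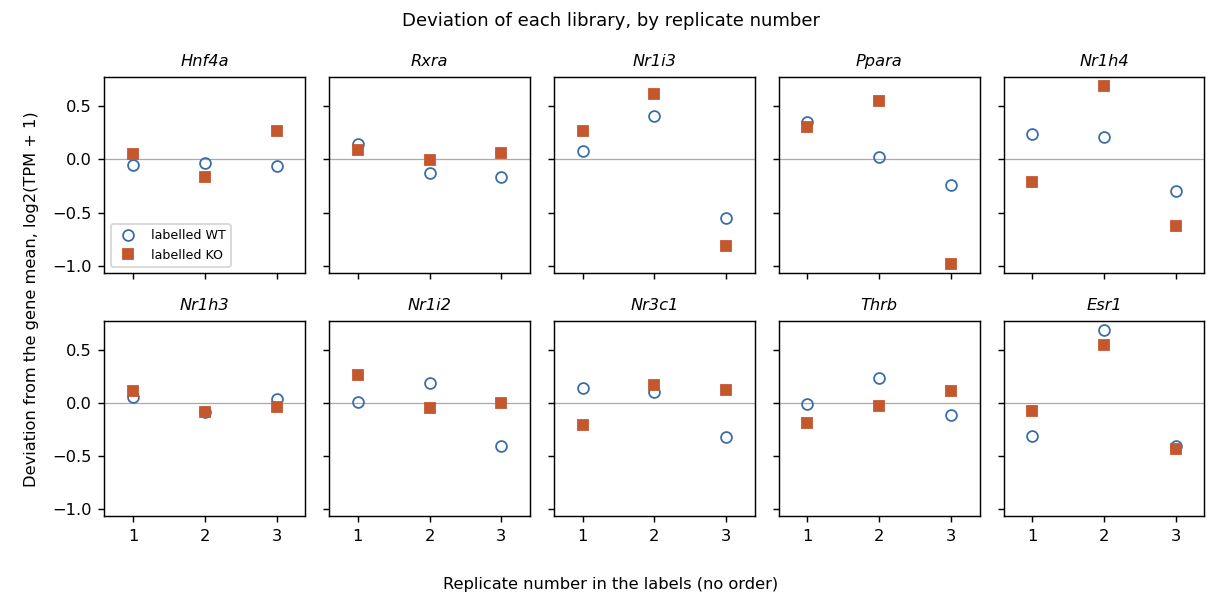
Deviation of each library from the mean of the gene over all 6 libraries (log2(TPM + 1)), by the replicate number in the labels, which has no order; open circles are labelled WT and filled squares KO. Nr1i3 and Esr1 show nearly the same deviations under either label, whereas Hnf4a, Rxra and Nr1h3 stay close to 0 in every library.

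Hnf4a, Rxra and Nr1h3 were steady. Hnf4a (MSTRG.1986|ENSMUSG00000017950; chromosome 2, 163506808 to 163572910) was at 136, 137 and 135 TPM under the WT label and 145, 126 and 169 TPM under the KO label. The WT values, with an SD of 1.20 TPM, lay inside the range of the KO values, with an SD of 21.7 TPM. The difference was +0.10 (standard error 0.14, 95% interval -0.23 to +0.42, limma adjusted p = 0.993). Hnf4a overlaps the antisense gene Hnf4aos, so its level carries the same uncertainty about strand.

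Rxra, the shared partner (MSTRG.1892|ENSMUSG00000015846; chromosome 2, 27676440 to 27762957), was at 113, 93.4 and 91.2 TPM under the WT label and 109, 102 and 107 TPM under the KO label. The KO values lay inside the WT range, with a difference of +0.10 and an interval from -0.20 to +0.40 (limma adjusted p = 0.993). Nr1h3, the oxysterol receptor LXRα (MSTRG.2085|ENSMUSG00000002108; chromosome 2, 91184061 to 91202834), was the least variable of the 10, at 57.3, 51.6 and 56.3 TPM under the WT label and 59.4, 51.8 and 53.6 TPM under the KO label. Its highest library was 1.15-fold above its lowest, the within-label SD was 0.0908 on the log2 scale, and the difference was -0.0047 with an interval from -0.28 to +0.27 (limma adjusted p = 0.998). Although the sum of squares of Nr1h3 was small, 88.1% of it lay between the numbers, against 75.7% for Nr1h4 and 72.9% for Ppara. Nr1h3 overlaps the noncoding gene Gm13783 on its own strand.

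Since RXRα is shared by its partners, its level was set against theirs. The summed TPM of the 6 partner genes among the 10 (Ppara, Nr1h4, Nr1h3, Nr1i2, Nr1i3 and Thrb) was 285, 284 and 211 under the WT label and 280, 340 and 180 under the KO label. The ratio of Rxra to this sum was 0.397, 0.329 and 0.432 in WT replicates 1, 2 and 3 and 0.388, 0.299 and 0.594 in KO replicates 1, 2 and 3. The ratio was highest at number 3 and lowest at number 2 under either label, and the labels overlapped. Rxra made up between 87.1% and 89.3% of the summed TPM of the 3 RXR genes.

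Of the remaining 3 receptors, Nr1i2 and Nr3c1 varied moderately. Thrb varied about as little as Hnf4a, with a within-label SD on the log2 scale of 0.165 against 0.151. Nr1i2, the xenobiotic sensor PXR (MSTRG.1410|ENSMUSG00000022809; chromosome 16, 38248323 to 38294824), was at 22.3, 25.4 and 16.5 TPM under the WT label and 26.8, 21.3 and 22.1 TPM under the KO label. Its difference of +0.14 had the largest size of the 10 and an interval from -0.28 to +0.56 (limma adjusted p = 0.993). Nr3c1, the receptor for corticosterone (MSTRG.1705|ENSMUSG00000024431), was at 21.3, 20.8 and 15.2 TPM under the WT label and 16.6, 21.9 and 21.2 TPM under the KO label. One library of each label was low, with a difference of +0.06 and an interval from -0.35 to +0.47. Only 26.7% of its sum of squares lay between the numbers, the lowest share of the 10. Thrb, the main thyroid hormone receptor of liver (MSTRG.1079|ENSMUSG00000021779; chromosome 14, 17660261 to 18038090), was at 8.53, 10.3 and 7.84 TPM under the WT label and 7.37, 8.36 and 9.31 TPM under the KO label, a difference of -0.08 with an interval from -0.42 to +0.27. Thrb overlaps the antisense gene Gm48321.

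**Figure D4:**
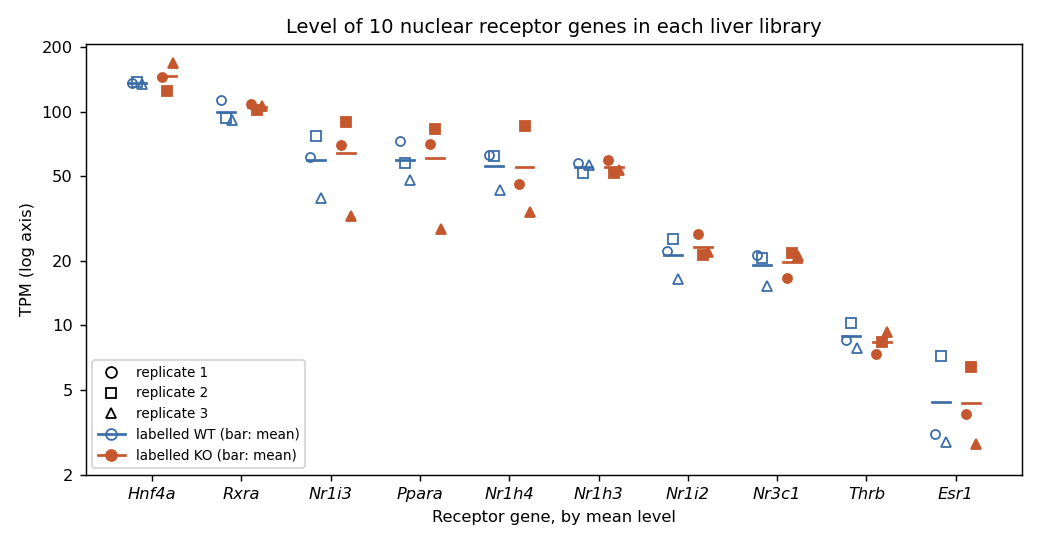
TPM of each receptor (log axis) in the 3 libraries labelled WT (open) and the 3 labelled KO (filled), with symbols for the replicate number and a bar at each mean. The labels overlap for every receptor, and the triangles (replicate 3) are lowest for Nr1i3, Ppara, Nr1h4 and Esr1 under each label.

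Genes with profiles over the 6 libraries close to those of Nr1i3 and Ppara, the most variable receptors, included enzymes and a transporter. Closeness was the root-mean-square difference between centred log2(TPM + 1) profiles among 7019 other genes averaging 5 TPM or more, a description with no test. Close to Nr1i3 were Hnmt, encoding histamine N-methyltransferase (0.0837), and Gbe1, encoding the glycogen branching enzyme (0.0926), against a deviation of 0.515 of Nr1i3 from its own mean. Gbe1 was at 74.4, 101 and 53.4 TPM under the WT label and 88.7, 99.6 and 38.4 TPM under the KO label, highest at number 2 and lowest at number 3 as Nr1i3 was. For Ppara the nearest were Fnip2 (0.0728), Slc2a2, encoding the hepatic glucose transporter GLUT2 (0.110), and Extl1 (0.140), against its own deviation of 0.507. Slc2a2 was at 183, 168 and 133 TPM under the WT label and 202, 211 and 89.3 TPM under the KO label. Among the 10 receptors, Nr1i3 and Ppara were each other's nearest, at 0.245.

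None of the other nuclear receptors was called either. Of 39 other family genes, 24 were tested, 15 had a difference above 0 and 9 below, with a median of +0.07 beside +0.09 over all tested genes, and 4 were listed at 0 in all 6 libraries. With median-ratio scaling 11 of the 24 were above 0 and the median was -0.04. The difference of largest size was that of Nr0b2, encoding SHP, a corepressor-like receptor without a DNA-binding domain that FXR induces, at 11.5, 19.5 and 37.0 TPM under the WT label and 14.7, 4.61 and 11.4 TPM under the KO label. The groups overlapped (difference -1.05, standard error 0.49, limma adjusted p = 0.993). Ppard, the widely expressed PPAR, was at 2.53 ± 0.786 and 1.63 ± 0.438 TPM (adjusted p = 0.993). Pparg, the adipogenic PPAR that rises in fatty liver, was at 11.2, 12.2 and 2.51 TPM under the WT label and 8.23, 7.30 and 2.73 TPM under the KO label, so number 3 was lowest under either label. Ppara made up between 79.9% and 91.5% of the summed TPM of the 3 PPAR genes.

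Closely related receptors were set beside their partners by level. Nr1h2 (LXRβ) was at 15.9 ± 2.45 TPM under the WT label and 18.9 ± 0.286 under the KO label without overlap (limma adjusted p = 0.993). Its difference was +0.24, or +0.12 with median-ratio scaling. Among the tested other family genes only Nr1h2 and Nr2c1 did not overlap, beside 9.08% of all tested genes. Nr1h3 exceeded Nr1h2 2.73-fold to 4.21-fold in each library. Thra was at 5.12 ± 1.17 and 6.06 ± 0.838 TPM, and the ratio of Thrb to Thra lay between 1.06 and 2.39. Nr1d1 (REV-ERBα), a repressor of the circadian clock, was lowest at number 2, with 5.23 and 10.7 TPM, against 19.8 to 24.6 TPM in the other 4 libraries. Nr2f6 (35.4 and 33.7 TPM), Nr5a2 (16.2 and 16.5), Rxrb (10.4 and 11.2), Esrra (10.8 and 11.3) and Rora (8.54 and 9.64) had means under the WT and KO labels that differed by less than the larger of the SDs of the 2 labels. With the replicate block, 3 of the 24 had an unadjusted p below 0.05, beside 6.18% of all tested genes. All 3 were higher under the KO label, as were 602 of the 707 such genes over the whole table. They were Nr1d1 (0.0453), Nr1d2 (0.0462, at 22.2 ± 4.66 and 27.9 ± 4.41 TPM) and Nr2f2 (0.0447, at 13.1 ± 4.23 and 15.7 ± 3.97), and the limma adjusted p of each was 0.724.

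Receptors act through coactivators and corepressors, and of 20 such coregulator genes 19 were tested and none was called. Their differences were above 0 for 17 and below for 2, with a median of +0.13, and median-ratio scaling left 12 above 0 and a median of +0.02. Ep300, the p300 acetyltransferase, was at 4.46, 4.12 and 4.77 TPM under the WT label and 5.58, 6.65 and 5.79 TPM under the KO label. The groups did not overlap (exact permutation p = 0.10, the smallest that 3 against 3 allows; unadjusted limma p of 0.0251, adjusted p = 0.993). Tbl1xr1, a subunit of the NCoR corepressor complex, also did not overlap, at 5.14 ± 0.892 and 6.86 ± 0.338 TPM (exact permutation p = 0.10, unadjusted limma p of 0.0412, adjusted p = 0.993). These 2 of 19 coregulators were the only ones without overlap, a share near the 9.08% of all tested genes. They were also the only 2 of the 19 with an unadjusted p below 0.05, beside 3.15% of all tested genes. With the replicate block 1 of 19 had such a p, beside 6.18% of all tested genes. Genes for ligand supply and receptor chaperones gave 13 of 17 tested above 0 and a median of +0.03, but 6 of 17 and -0.09 with median-ratio scaling. Fkbp5, a chaperone partner of GR and itself a GR target, was at 4.79, 7.06 and 8.49 TPM under the WT label and 6.50, 11.9 and 13.2 TPM under the KO label. It was higher in the KO-labelled library at each of the 3 numbers, with an unadjusted limma p of 0.0943, or 0.00479 with the block (adjusted p = 0.724). Dnajc7, which retains CAR in the cytoplasm, was at 25.4 ± 4.10 and 29.5 ± 1.93 TPM.

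Target genes of the receptors were read in the same way, from lists that share some genes (Cyp7a1, Cyp8b1, G6pc, Klf9, Pck1, Tat and Ugt1a1 each stand on 2 target lists), and no target was called. Beside each list stand its values with median-ratio scaling, since that scaling moved the median of all genes by -0.11. Lists and receptors did not share one pattern by replicate number. Genes lowest at number 3 under each label were 15 of 20 PPARα targets and 8 of 9 CAR targets, whose receptor genes were also lowest there, but 0 of 6 FXR targets, although Nr1h4 was lowest there. They were also 7 of 11 PXR, 6 of 11 LXR, 4 of 6 thyroid hormone receptor, 6 of 15 HNF4α and 3 of 16 GR targets. The receptor genes Nr1i2, Nr1h3, Thrb, Hnf4a and Nr3c1 were not lowest at number 3 under both labels. Of 3 genes that FXR signalling lowers, 1 was lowest there. The share over all tested genes was 35.2%, and these shares are descriptions with no test. PPARα targets, mostly enzymes of fatty acid oxidation, had 13 of 20 differences above 0 and a median of +0.07, but 6 of 20 and -0.05 with median-ratio scaling. The members with the smallest p were Creb3l3 (129 ± 5.21 and 144 ± 9.91 TPM) and Pdk4 (2.19 ± 1.27 and 1.44 ± 0.214), each with an adjusted p of 0.993. Cyp4a14, an omega-hydroxylase named here because of its values, was at 61.0, 59.2 and 2.57 TPM under the WT label and 175, 31.0 and 5.63 TPM under the KO label. Acaa1b, the peroxisomal thiolase gene chosen in the same way, was at 629, 908 and 257 TPM and at 745, 601 and 215 TPM. Both were lowest at number 3, where Ppara was lowest.

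CAR targets had 4 of 9 tested differences above 0 and a median of -0.08, or 2 of 9 and -0.20 with median-ratio scaling. Aldh1a1, a retinaldehyde dehydrogenase, was at 813 ± 185 and 697 ± 205 TPM, and Aldh1a7 at 118 ± 14.8 and 107 ± 42.1 TPM. Cyp2b9, chosen after its values were seen, was at 4.40, 59.6 and 0.624 TPM under the WT label and 50.8, 11.5 and 0.436 TPM under the KO label, and was also lowest at number 3. The PXR targets had all 11 tested differences above 0 with a median of +0.10, but 4 of 11 and -0.02 with median-ratio scaling. Cyp3a11, the main inducible drug-oxidizing CYP3A, was at 113, 184 and 136 TPM under the WT label and 394, 189 and 179 TPM under the KO label, and the groups overlapped (exact permutation p = 0.20, unadjusted limma p of 0.0555, adjusted p = 0.993). Ces2a, a carboxylesterase, was at 64.4 ± 7.45 and 79.2 ± 15.6 TPM, with an unadjusted limma p of 0.143, or 0.0295 with the block.

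FXR targets had 4 of 6 tested differences above 0 and a median of +0.05, but 2 of 6 and -0.07 with median-ratio scaling. Besides Nr0b2, described above, the smallest p was that of Osgin1, at 32.4 ± 4.12 and 40.4 ± 12.1 TPM. Of 3 genes that FXR signalling lowers, Cyp7a1, the rate-limiting enzyme of bile acid synthesis, was at 28.8, 101 and 39.5 TPM under the WT label and 18.0, 155 and 15.4 TPM under the KO label. It was highest at number 2 under either label (limma adjusted p = 0.993). Cyp8b1, the sterol 12α-hydroxylase and also on the HNF4α list, was at 114 ± 25.1 and 92.7 ± 23.1 TPM. LXR targets had 8 of 11 above 0 and a median of +0.10, or 6 of 11 and +0.02 with median-ratio scaling, and the smallest p were those of the cholesterol exporter genes Abca1 (19.3 ± 1.54 and 23.6 ± 4.33 TPM) and Abcg8 (36.8 ± 5.35 and 42.4 ± 6.26). HNF4α targets had 8 of 15 above 0 and a median of +0.012, but 3 of 15 and -0.11 with median-ratio scaling, and the smallest p was that of Tat, the tyrosine aminotransferase gene that GR also induces. Tat was at 864, 1211 and 1083 TPM under the WT label and 1171, 789 and 363 TPM under the KO label, with overlap (limma adjusted p = 0.993).

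Of 16 GR targets, 3 had an unadjusted p below 0.05 and 4 did not overlap between the labels (the 3 and Errfi1, named after its values were seen), beside 3.15% and 9.08% of all tested genes. Of the 16, 14 were above 0 with a median of +0.16, which median-ratio scaling brought to +0.03 with 10 above 0. Mt1 and Mt2, metallothioneins that metals and glucocorticoids induce, were at 13.1 ± 9.18 and 6.54 ± 3.73 TPM under the WT label and 35.9 ± 13.8 and 17.7 ± 7.27 TPM under the KO label. In each the KO values lay above all WT values (exact permutation p = 0.10 each, unadjusted limma p of 0.0194 and 0.0229, adjusted p = 0.993). Tsc22d3, the glucocorticoid-induced leucine zipper, went the other way, at 108, 113 and 116 TPM under the WT label and 102, 67.0 and 43.8 TPM under the KO label (exact permutation p = 0.10, unadjusted limma p of 0.0315, adjusted p = 0.993). It was named after its values were seen. The receptor gene Nr3c1 differed by +0.06. Thyroid hormone receptor targets had 4 of 6 tested above 0 and a median of +0.021, but 2 of 6 and -0.10 with median-ratio scaling. Thrsp, a lipogenic regulator, was at 429, 1426 and 343 TPM under the WT label and 526, 1002 and 94.8 TPM under the KO label, highest at number 2 under either. Klf9, which thyroid hormone and glucocorticoids induce, was at 29.6 ± 3.53 and 38.4 ± 14.9 TPM, and Me1, the malic enzyme gene, had an unadjusted limma p of 0.600, or 0.0462 with the block (difference -0.44), and was named for that value.

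**Figure D5:**
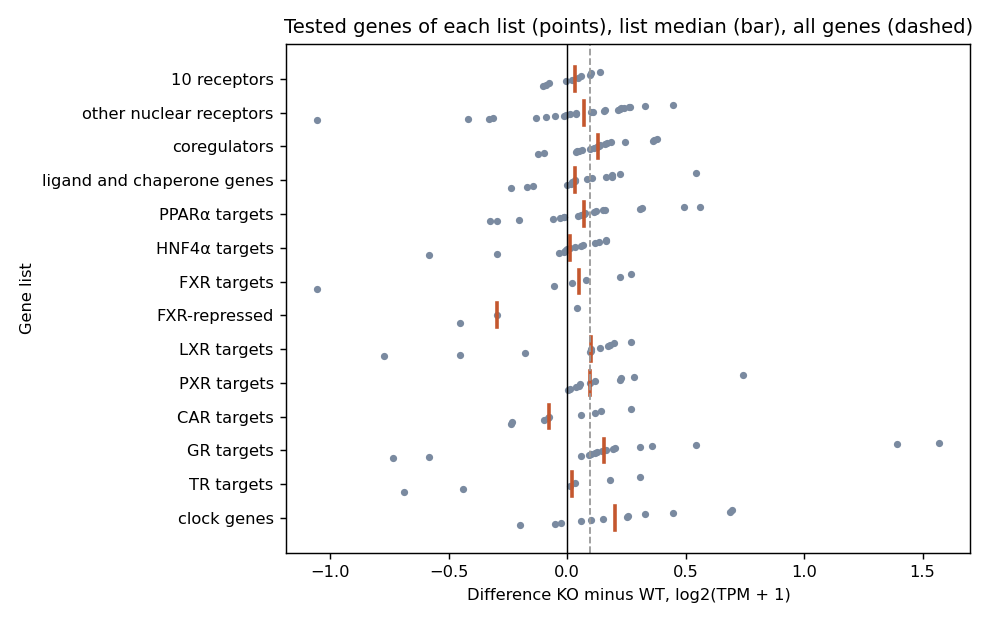
Difference between the labels (KO minus WT, log2(TPM + 1)) of each tested gene (points) and the median (bar) of each gene list; the dashed line is the median of all tested genes at +0.09. The receptor points lie between -0.10 and +0.14, and the widest spread is in the GR targets, from Tsc22d3 at -0.74 to Mt1 at +1.57.

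Each library held between 11013 and 11708 genes at 1 TPM or more, and its 20 most abundant genes took 41.2% to 46.9% of the total. Under each label the library numbered 3 had the fewest such genes, 11013 (WT) and 11328 (KO). It also had the largest share in its 20 most abundant genes, 46.9% and 43.7%. TPM sum to the same total in each library, and the part of this in the values lowest at number 3 was not tested. The libraries were checked against markers of liver cells. All 8 hepatocyte markers were tested, and their summed TPM was 47890 to 57280 under the WT label and 54460 to 71230 under the KO label. Macrophage (8 of 8 tested) and endothelial markers (8 of 8) summed to 204 to 288 and 99.7 to 108 TPM under the WT label and to 257 to 273 and 103 to 117 TPM under the KO label. The sums of 8 stellate cell markers (7 tested) did not overlap, at 114.6 to 137.5 TPM under the WT label and 137.7 to 159.6 TPM under the KO label. They came mostly from Dcn, whose own values overlapped, at 99.9 ± 11.2 and 113 ± 10.4 TPM. Col1a1 (not tested), Col1a2 and Col3a1 were higher in every KO-labelled library than in any WT-labelled one. These 3 of the 8 stand beside 9.08% of all tested genes without overlap in either direction. The sums of 6 bile duct markers (2 tested), which came mostly from Spp1, also did not overlap, at 25.43 to 35.98 and 36.02 to 57.94 TPM. The part of these markers in the results was not tested. Of all these markers, Col1a2, Col3a1, Lyve1 and Spp1 had an unadjusted p below 0.05, each higher under the KO label, and none was called. They were 2 of 7 tested stellate, 1 of 8 endothelial and 1 of 2 bile duct markers, beside 3.15% of all tested genes. Of 7 muscle and pancreas markers, 5 were listed at 0 in all 6 libraries, and the remaining signal came mostly from Cela1 (54.5 to 87.8 TPM). The muscle marker Acta1 was at 1.305, 0.446 and 1.758 TPM under the WT label and 0, 0.048 and 0 TPM under the KO label. Its labels did not overlap, but it was too low to be tested.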

How the data were processed

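The authors deposited a single TPM table for 54600 genes and 6 libraries. No read counts were used, so depth is unknown and no counting interval is given. The submitters' processing notes list mm10 and limma, DESeq2, featureCounts, HISAT2 and fastp, without versions or roles. Names and coordinates came from GENCODE M21 on that build (51492 of 54323 Ensembl identifiers matched). The 11440 genes reaching 1 TPM in 3 or more libraries were fitted in limma 3.58.1 (R 4.3.3) as log2(TPM + 1), two-sided, with an intensity trend and Benjamini-Hochberg adjustment. This scale understates changes of low genes. The step was run on simulated data with independent libraries, so that run does not cover deviations that same-numbered libraries share.

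The p-values measure the spread between these libraries, which may be technical. Same-numbered libraries deviated together (correlations of 0.157, 0.408 and 0.381, against -0.369 to 0.026 for other pairs). The labels do not say what a number marks. The reported fit and intervals have no block, and values from a fit with the number as a block stand beside them where named.

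The receptors, lists and tests were chosen with earlier results of these data known. The genes named are the 2 with the smallest p on each list, family genes averaging 5 TPM or more, and the nearest profiles. Cyp4a14, Acaa1b, Cyp7a1, Cyp2b9, Thrsp, Tsc22d3, Me1, Dbp, Errfi1, Nr2c1 and the single cell markers named were added after their values were seen. Alternatives changed the pseudocount, filter, scaling, trend, block or libraries kept. The values of 2 further genes that this rule names are not reported here, though the genes stay in the counts.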

Additional observations from a re-analysis of the deposited data

How the results depend on the processing

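No receptor was called under any alternative run, and the smallest limma adjusted p of a receptor was 0.760, for Rxra with the replicate block. The count over all tested genes, 1 as reported, was 0 with a pseudocount of 5, no filter, a filter of 5 TPM, quantile normalization, the replicate block, and the block with median-ratio scaling, and 0 to 2 with 1 library left out. Genes with an unadjusted p below 0.05 split into 316 higher and 44 lower under the KO label, but 142 higher and 159 lower with median-ratio scaling.

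Differences near 0 changed sign with the scaling, which moved all genes together. With median-ratio scaling, with or without the replicate block, the log2 differences (KO minus WT) were Hnf4a -0.023, Nr1i3 -0.078, Rxra -0.026, Nr3c1 -0.058, Esr1 -0.080, Rxrb -0.0038, Nr5a2 -0.080, Fnip2 -0.098, Hnmt -0.056. List medians that moved by more than the spread between libraries were coregulators +0.021, ligand and chaperone genes -0.088, GR targets +0.033. Medians that changed sign were the 10 receptors (+0.032 to -0.079), other nuclear receptors (+0.071 to -0.042), ligand and chaperone genes (+0.034 to -0.088), PPARα targets (+0.071 to -0.050), HNF4α targets (+0.012 to -0.11), FXR targets (+0.051 to -0.065), PXR targets (+0.097 to -0.024), thyroid hormone receptor targets (+0.021 to -0.096). With quantile normalization the values were Nr1i3 -0.043, Nr3c1 -0.027, Esr1 -0.080, Rxrb -0.0058, Nr5a2 -0.049, Fnip2 -0.096, Hnmt -0.030, and the list median was coregulators +0.019. With the mitochondrial and the 20 most abundant genes removed they were Nr1i3 -0.023, Nr3c1 -0.0048, Esr1 -0.034, Nr5a2 -0.027, Fnip2 -0.063, Hnmt -0.0027. A pseudocount of 0.1 gave Fnip2 -0.017, and 5 gave Esrra +0.0089.

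With each library left out in turn, the ranges of the log2 differences (for lists, of their medians) were Ppara -0.38 to +0.38, Hnf4a -0.0076 to +0.21, Nr1h4 -0.47 to +0.19, Nr1h3 -0.062 to +0.035, Nr1i2 -0.028 to +0.27, Nr1i3 -0.25 to +0.46, Nr3c1 -0.090 to +0.18, Esr1 -0.24 to +0.37, Thrb -0.15 to +0.021, Cyp7a1 -1.50 to +0.13, Aldh1a1 -0.44 to +0.011, Aldh1a7 -0.48 to +0.13, Thrsp -1.41 to +0.29, Pparg -0.95 to +0.083, Nr1d1 -0.14 to +0.79, Nr2f6 -0.12 to +0.090, Esrra -0.24 to +0.32, Nr5a2 -0.047 to +0.10, Fnip2 -0.27 to +0.48, Slc2a2 -0.25 to +0.37, Extl1 -0.29 to +0.24, Hnmt -0.17 to +0.44, Gbe1 -0.33 to +0.35, Cyp4a14 -0.87 to +1.66, Acaa1b -0.72 to +0.34, Cyp2b9 -0.93 to +1.72, Me1 -1.09 to +0.31, ligand and chaperone genes +0.014 to +0.19, FXR targets -0.096 to +0.15. The direction of 9 of the 10 receptors, Rxra apart, thus depended on single libraries. Esr1 was not tested with the filter of 5 TPM. The causes were not tested, and the depth of the libraries is unknown.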

Other observations

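Core clock genes, whose liver transcripts rise and fall daily, had 9 of 12 tested differences above 0 and a median of +0.20, with no gene called. The share above 0 over all tested genes was 74.5%, and with median-ratio scaling 7 of the 12 were above 0 with a median of +0.10. Per2, a negative regulator of the clock, was at 3.54, 6.27 and 3.59 TPM under the WT label and 6.53, 7.76 and 8.58 TPM under the KO label, without overlap (exact permutation p = 0.10, unadjusted limma p of 0.0136, adjusted p = 0.993). Cry2 was at 7.92 ± 0.347 and 9.68 ± 1.01 TPM (SD, n = 3 each), also without overlap (adjusted p = 0.993). These 2 were the only clock genes of the list without overlap, beside 9.08% of all tested genes. With the replicate block, 4 of the 12 tested had an unadjusted limma p below 0.05, beside 6.18% of all tested genes. They were Per2 (0.011), Nr1d1 (0.0453), Nr1d2 (0.0462) and Dbp (0.0331), a clock output factor named because of that value. All 4 were higher under the KO label, as were 602 of the 707 such genes over the whole table, and the limma adjusted p of each was 0.724. The values of Dbp were 43.5, 24.9 and 13.0 TPM under the WT label and 63.2, 67.9 and 14.5 TPM under the KO label. They were lowest at number 3 under either label, where Ppara and Nr1i3 were also lowest. The same held for 7 of the 12 tested clock genes, beside 35.2% of all tested genes. The time of day of sampling is not given in the labels, and its part in these values was not tested.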
